A study of Homo sapiens with 27 samples.

Results

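MKN-45, a human gastric cancer cell line, was compared after 48 h of SGX-523 with the same line given the solvent. The comparison used 6 of the 27 expression arrays of a study on MET amplification: the 3 arrays titled as MKN-45 with SGX-523 for 48 h and the 3 titled as MKN-45 control. SGX-523, a compound that blocks the kinase activity of MET, was given at 1 uM, and the control cells received DMSO. How long the DMSO cells were kept is not stated, no genotype is named beyond the cell line, and each group has 3 biological replicates by its titles, with no word on separate cultures. Where the text sets other groups beside these 6 arrays, they are the 3 MKN-45 arrays with SGX-523 for 24 h, and the 48 h SGX-523 and DMSO arrays of EBC-1 and HCC827, which are lung cancer lines. Per the labels, EBC-1 depends on MET as MKN-45 does, and HCC827 carries active MET without depending on it. MKN-45 stands here for gastric cancer as 1 established line, with 1 dose of 1 inhibitor. The source names of the DMSO arrays count up from MKN-45 to MKN-46 and MKN-47, while their titles and cell line entries all read MKN-45, which was followed here. The p-values measure the spread between replicate samples, pooled over the 24 arrays fitted, and this spread may be technical.

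MET is the receptor tyrosine kinase for hepatocyte growth factor. When the receptor is amplified it can signal without its ligand, through the RAS and ERK kinases, which switch on growth-related transcription factors, and through PI3K and AKT, which keep the FOXO factors out of the nucleus. Gastric cancer is among the tumours in which the MET gene is found amplified, and cells that have come to rely on the receptor stop dividing when it is blocked. The stomach lining from which such tumours arise holds mucus, acid, pepsinogen and hormone producing cells, and the keratin, mucin and hormone genes of these cells serve as lineage markers.

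The values are the log2 values that the authors deposited, 1 per probe set and array. The test took in 11211 genes whose signal reached the array median on 3 or more of the 9 MKN-45 arrays, each read from its brightest probe set. A difference is SGX-523 at 48 h minus DMSO on this log2 scale, so that 1 is a 2-fold change, and its error is the standard error (SE) of the model. A gene was called, and is said here to have risen or fallen, where its p from limma, adjusted by Benjamini-Hochberg over all genes tested, was under 0.05. The median SE was 0.076. It rests on the 3 arrays in each group and on a spread pooled over the 24 arrays fitted, from 3 cell lines. The array medians were 5.10 ± 0.0098 (SD, n = 3) with SGX-523 and 5.07 ± 0.0086 with DMSO, and values below them are near the low end of the scale, where the size of a fold is poorly fixed. Within each of the 2 groups the arrays correlated at Pearson's r of at least 0.9959 across probe sets.

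Markers of gut epithelium fitted the label. Of 9 measured, 8 lay above the array median on all 6 arrays, the exception being MUC13 (6.67 ± 0.042 with DMSO and 4.86 ± 0.19 with SGX-523), and their summed log2 value ran from 101.47 to 101.59 on DMSO arrays and from 95.06 to 95.52 on SGX-523 arrays. None of 10 fibroblast markers and none of 3 squamous markers did so, and the squamous sums ran from 13.46 to 13.77 with DMSO and, lower without overlap, from 12.32 to 12.55 with SGX-523. Of 8 lung markers SFTPC, NAPSA and NKX2-1 lay above the median on all 6 arrays, and the lung sums ran from 34.58 to 35.38 with DMSO and, higher without overlap, from 36.01 to 36.23 with SGX-523. The part of these markers in the results was not tested. Of 9 leukocyte markers only LYZ and CD68 did, and 7, among them those that define lymphocytes, lay below the median on all 6 arrays. The leukocyte sums ran from 38.47 to 39.48 with DMSO and from 38.41 to 39.31 with SGX-523, and the fibroblast sums from 34.96 to 36.01 and from 34.94 to 35.59. Array controls moved with the treatment. Over 42 external control probe sets the median reached 8.22 ± 0.034 with SGX-523 against 7.95 ± 0.076 with DMSO (SD, n = 3 each), a difference of 0.27, and the 3 prime minus 5 prime difference of ACTB, a measure of RNA integrity, was 4.16 ± 0.12 against 3.53 ± 0.084. The exact two-sided permutation p was 0.1 for each, the smallest that 3 against 3 arrays can give, and the part of these controls in the results was not tested.

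At 48 h the arrays showed a cell population with fewer transcripts of cell division, glucose use and ERK signalling, and with more transcripts of FOXO targets and of single genes such as SPINK1, GSTA1 and the endocrine factor gene INSM1. Of the 11211 genes 8467 were called (75.5%), 4912 higher (43.8%) and 3555 lower (31.7%). At least 2-fold changes were called in 1266 genes higher (11.3%) and 865 lower (7.72%). Changes of at least 16-fold numbered 35 upward and 36 downward. The 3 treated arrays lay above all 3 DMSO arrays in 4977 genes and below them in 3609, and the groups overlapped in only 2625. Groups without overlap are thus common here. Of the called genes 58% were higher. Centred on the external controls instead, 36.1% of the 8328 called genes were higher and the median of all genes moved from 0.07 to -0.20, so the direction of small changes depends on the scaling. List counts given below under that centring are to be read against that share, not against 43.8% and 31.7%. The filter kept a gene that was bright in any MKN-45 group: 422 of the genes tested reached the array median on no DMSO array and 139 on no treated array, and these had passed only through the group in which they were high. Without the filter 29.7% of 18132 genes were called higher and 21.5% lower, and of the members on the array 20 of 24 on the ERK output list were lower and 3 higher, 46 of 46 mitosis genes lower, 22 of 28 FOXO and quiescence genes higher and 5 lower, and 14 of 28 chemokine and NF-kB genes higher and 1 lower. The measurements are of bulk RNA, in which fewer cells of a type and less RNA per cell cannot be told apart.

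The gene that rose most was SPINK1, which encodes a trypsin inhibitor secreted in pancreas and gut. Its DMSO arrays read 4.29, 4.34 and 4.19 and its SGX-523 arrays 10.93, 11.11 and 11.08. The groups lay far apart and each was tight, a difference of 6.77 ± 0.080 (adjusted p = 5.27e-32). GSTA1, an alpha class glutathione transferase that detoxifies electrophiles, read 5.62, 5.36 and 5.42 with DMSO and 12.11, 12.13 and 11.89 with SGX-523, a difference of 6.58 ± 0.12 (adjusted p = 1.08e-28). INSM1, a zinc finger factor of endocrine differentiation, went from 4.72, 4.43 and 4.51 to 10.46, 10.32 and 10.38, a difference of 5.83 ± 0.11 (adjusted p = 5.46e-28). SPINK1 and INSM1 were below the array median with DMSO, GSTA1 was just above it, and all 3 were far above it with the inhibitor. The glucuronosyltransferase gene UGT2B15 (5.77), the G protein regulator gene RGS4 (5.70), the cell adhesion gene HEPACAM2 (5.46), TMED6 (5.38), the matrilin gene MATN2 (5.30), the TNF receptor family gene TNFRSF19 (5.30) and GSTA2 (5.26) followed. TMEM158 (5.06), the anoctamin gene ANO3 (5.03), the stress gene NUPR1 (5.01), the islet and gut endocrine factor gene RFX6 (4.88) and the autophagy gene TP53INP2 (4.79) completed the 15 largest rises.

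SPC25, a subunit of the NDC80 complex that ties chromosomes to the spindle, fell most. It read 9.12, 9.08 and 9.07 with DMSO and 3.03, 3.08 and 3.31 with SGX-523, a difference of -5.95 ± 0.11. The treated values lie under the array median, so that the DMSO level is the firmer of the pair. SPC25 passed the filter on low signal only through the 3 DMSO arrays, so no p is given for it. EMP1, an epithelial membrane protein gene, went from 10.80, 10.78 and 10.86 to 4.68, 5.11 and 5.01, a difference of -5.88 ± 0.072. Of its 4 probe sets this was the lowest, and the highest was at -2.28. DUSP6, the phosphatase that ERK induces and that switches ERK off, went from 10.87, 10.81 and 10.80 to 5.34, 5.74 and 5.57, a difference of -5.27 ± 0.073 (adjusted p = 8.62e-31). Here all 4 probe sets moved alike, between -5.71 and -5.13. The other large falls were in mitosis genes (DLGAP5 at -5.37, CEP55 at -5.32, KIF20A at -5.06, MKI67 at -4.93, NDC80 at -4.85, CENPA at -4.80), in replication and recombination genes (RRM2 at -5.02, DTL at -4.85, MND1 at -4.80), in the anchoring protein gene AKAP12 (-5.26), the hyaluronan-degrading CEMIP (-5.19) and the ETS factor gene ETV5 (-5.13).

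**Figure D1:**
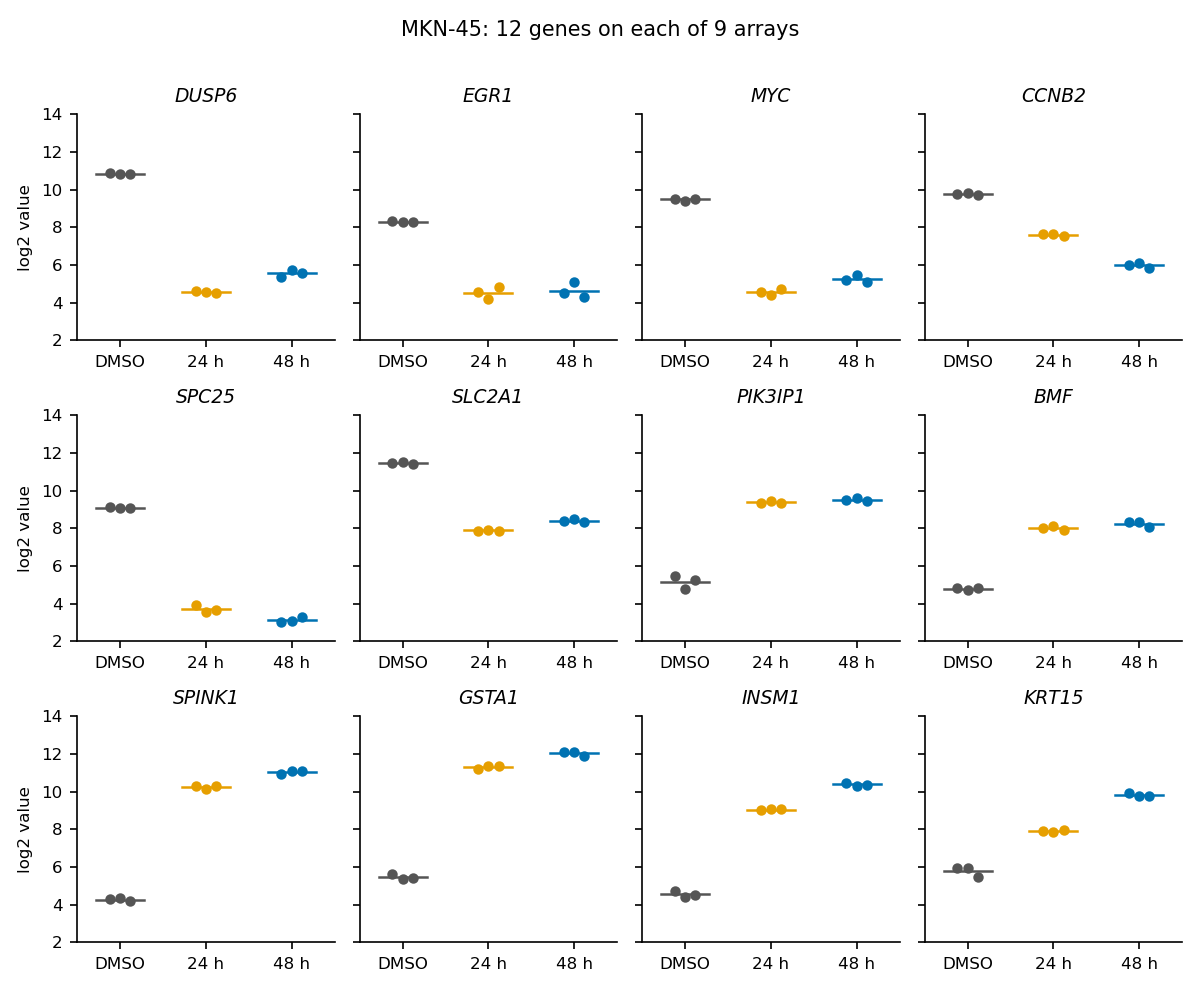
Deposited log2 values of 12 genes (vertical axis) on the 9 MKN-45 arrays, by treatment: grey DMSO, orange SGX-523 for 24 h, blue SGX-523 for 48 h, with a point per array and a line at the group mean. The 3 blue points of every gene shown lie apart from its 3 grey points, lower for DUSP6 to SLC2A1 and higher for PIK3IP1 to KRT15. Among the 11211 genes tested, these groups overlapped in 2625.

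The transcript of the drug target was lower. MET read 12.60, 12.78 and 12.80 with DMSO and 12.27, 12.22 and 12.13 with SGX-523 by its brightest probe set. The treated arrays all lay below the DMSO arrays, by a difference of -0.52 ± 0.063 (adjusted p = 1.23e-08), while the lowest of its 6 probe sets was at -1.55. The mean over a gene's probe sets is given as its probe set mean wherever it moves a called value by over 1.5 times, and for MET it was -1.21. The related receptor gene MST1R (RON) fell by 1.23 on the log2 scale (probe set mean -0.74). HGF, the ligand, did not pass the filter on low signal and was not tested. Of the 16 genes tested from 19 of the MET receptor axis, 8 rose and 6 fell, against 43.8% and 31.7% of all genes. The median was 0.05 against 0.07 over all genes tested. When arrays were centred on external controls the counts were 6 and 8, beside 36.1% higher among all called genes. CBLB, a ubiquitin ligase that takes active receptors to degradation, rose from 7.03 ± 0.067 (SD, n = 3) to 9.02 ± 0.095, a difference of 1.99. The adaptor genes GAB1 (1.11) and GAB2 (1.04) and the MET partner PLXNB1 (1.19) rose too, and PTPN11, the SHP2 phosphatase that carries the signal to RAS, fell (-0.88).

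Other receptor kinases moved in both directions. Of 28 genes tested from a list of 36 receptors, ligands and regulators, 14 rose and 9 fell (median 0.24), near the shares of all genes (43.8% and 31.7%). The insulin receptor gene INSR went from 7.75, 7.69 and 7.83 to 10.11, 10.15 and 10.15, a difference of 2.38 ± 0.059. ERBB3, the HER3 receptor through which MET can reach PI3K, rose by 1.78, FGFR2 by 1.58 and MERTK by 1.54. EGFR went the other way, from 8.22, 8.16 and 8.12 to 6.83, 6.80 and 6.84, a difference of -1.34 ± 0.046 (adjusted p = 1.47e-21). AXL fell by 2.26 on the log2 scale. Among the ligands, HBEGF (-2.41) and EREG (-2.01), which bind EGFR, fell, while GAS6 (1.86), which binds AXL and MERTK, and BTC (1.10) rose. The receptor inhibitors were split, with LRIG1 higher (2.31) and ERRFI1, which blocks EGFR, lower (-1.67).

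Most genes that ERK switches on fell. Of 22 tested from 24 in the ERK output and feedback list, 18 fell and 3 rose, against 31.7% and 43.8% of all genes. Their median was -2.12, and 17 fell at least 2-fold (all genes 7.72%). The phosphatase genes DUSP6 and DUSP4 (-2.69) and the feedback inhibitors SPRY4 (-2.09), SPRED2 (-2.27), SPRED1 (-2.14), SPRY1 (-1.76) and SPRY2 (-1.49) fell. So did the ETS factors of the PEA3 group, ETV5, ETV1 (-4.15) and ETV4 (-2.45). ETV1 read 9.71, 9.68 and 9.72 with DMSO and 5.37, 5.75 and 5.56 with SGX-523. The effector genes EPHA2 (-3.21), IER3 (-2.44), CCND1 (-2.38), LIF (-2.10), PHLDA1 (-2.04) and PLAUR (-2.02) fell by amounts near the list's median or more. The 3 members that rose were EPHA4, an ephrin receptor gene (3.88, or 1.31 by the probe set brightest over 24 arrays), and the ETS factor genes ETS1 (1.66) and ETS2 (0.61). EPHA4 went from 3.98, 3.61 and 3.65 to 7.56, 7.55 and 7.78, crossing from below to above the array median.

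Immediate early factors, which serum and growth factors induce within minutes, were more mixed. Of 20 tested from 27, 13 fell and 4 rose (median -0.41), against 31.7% and 43.8% of all genes. EGR1, a zinc finger factor induced through SRF and its ETS partners, went from 8.33, 8.27 and 8.29 to 4.52, 5.09 and 4.28, a difference of -3.66 ± 0.13, and its 4 probe sets ranged from -4.21 to -0.32. The probe set behind the test passed the filter on low values only through the 3 DMSO arrays, so no p is given for it. With any of these left out and the filter run again, a dimmer probe set took its place, and EGR1 was at -0.38 to -0.22, not called without replicate 2. With the probe set held, leaving out 1 array at a time gave -3.89 to -3.49. FOS, a subunit of AP-1, was tested by a probe set with DMSO values of 7.23, 7.73 and 7.97 and treated values of 5.58, 5.18 and 5.60, a difference of -2.19 ± 0.16. The lowest of its 4 probe sets was at -6.22, and their mean at -4.05. FOSL1 (-1.56, or -0.91 to -0.85 with a DMSO array left out and the filter run again) and KLF4 (-1.50) fell and FOSL2 (2.06), JUN (1.46), KLF10 (1.24) and ATF3 (0.94) rose, so that members of the AP-1 family moved both ways.

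The promoter of EGR1 is printed here because it holds the element through which SRF acts. In RefSeq promoter windows (GRCh38.p14, 250 bases before to 50 after a gene's start), 17 of the 20 tested immediate early genes had a window, and 2 of these, EGR1 and SRF, held the CArG box on either strand, as did 1.29% of all 27305 windows and 1.02% of those of genes tested. The AP-1 motif TGANTCA stood in 1 of the 17 windows (all windows 7.76%, those of genes tested 4.36%). The ETS motif CCGGAAGT stood in 0 of 15 windows of the ERK output list (all windows 4.44%, those of genes tested 8.96%). The 150 bases before the EGR1 start, on the plus strand at chr5:138465329-138465478, follow 5′ to 3′ with CArG boxes in capitals.
EGR1: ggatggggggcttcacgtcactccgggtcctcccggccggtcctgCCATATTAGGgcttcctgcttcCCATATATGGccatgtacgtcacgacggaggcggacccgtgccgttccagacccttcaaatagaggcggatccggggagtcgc
Both boxes lie between positions -105 and -74 from the start. A match describes these letters only.

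MYC, the factor that drives growth and ribosome production, fell and its relative MYCL rose. MYC read 9.51, 9.40 and 9.51 with DMSO and 5.20, 5.46 and 5.11 with SGX-523, a difference of -4.21 ± 0.070 (adjusted p = 3.77e-29). MYCL went the opposite way, from 4.45, 4.46 and 4.56 to 8.91, 8.86 and 8.24, a difference of 4.18 ± 0.16 (adjusted p = 1.82e-20, probe set mean 2.54). Neither gene's groups overlapped, which was also so of most genes tested (4977 higher and 3609 lower of 11211). Of 12 genes tested from 13 in the MYC network, 8 rose and 2 fell (median 0.33), against 43.8% and 31.7% of all genes. With arrays centred on external controls 5 of the network rose and 3 fell, beside 36.1% higher among all called genes. MLXIP, a glucose-sensing relative of MYC's partners, rose by 2.65 and the MAX-binding repressor MXD4 by 1.69, probe set mean 0.99.

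Ribosome production genes, many of them known MYC targets, fell by small amounts. Of 34 tested from 35, 31 fell and 2 rose (median -0.69), against 31.7% and 43.8% of all genes, and 7 fell at least 2-fold. LYAR, a nucleolar growth factor gene, went from 9.18, 9.12 and 9.15 to 7.13, 7.25 and 7.26, a difference of -1.93 ± 0.064. The pre-ribosome factor genes BOP1 (-1.57), NOC3L (-1.11) and NOP56 (-1.09) and the rRNA methylase gene FBL (-1.03) fell, and UBTF, the polymerase I factor (0.48, probe set mean 0.28), and TAF1D (0.98) rose. The E-box CACGTG, to which MYC and MAX bind, stood in 10 of the 29 windows found for this list, against 7.43% of all windows and 10.1% of those of genes tested. Of 19 aminoacyl-tRNA synthetase genes tested from 20, 13 fell and 2 rose (median -0.42), with FARSA at -1.10, FARSB at -0.99, SARS1 at 0.52 and QARS1 at 0.48, probe set mean 0.23.

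Most cell cycle genes were lower, and mitosis genes by the most. All 46 mitosis genes tested from 47 fell, with a median of -3.66 and 44 at least 2-fold lower, against 31.7% of all genes called lower. Of 33 DNA replication and nucleotide genes tested from 35, 32 fell and 1 rose, with a median of -2.02. Of 26 cyclin, CDK, CDK inhibitor and E2F genes tested from 29, 17 fell and 6 rose (median -0.61), and of 22 homologous recombination and Fanconi genes tested from 29, 20 fell and 1 rose (median -1.03).

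Among the G1 regulators, the cyclin genes CCNA2 (-3.95), CCNE2 (-3.47), CCND1 and CCNE1 (-2.16) fell, as did CDC25A (-2.26), which activates CDKs. The E2F factors were uneven: E2F8 (-3.15), E2F2 (-1.84) and E2F1 (-1.22) fell and E2F3 rose (0.77). Of 5 CDK inhibitor genes CDKN1C (p57), CDKN1A (p21) and CDKN1B (p27) rose, and CDKN2A (-0.66) and CDKN2D (-0.62) fell. CDKN1C read 6.61, 6.47 and 6.48 with DMSO and 8.84, 8.86 and 9.02 with SGX-523, a difference of 2.38 ± 0.11. CDKN1A rose by 0.97 and CDKN1B by 0.50. RBL2 (p130), the pocket protein of resting cells, rose by 0.84.

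In replication, the ribonucleotide reductase subunit gene RRM2, which sets the supply of DNA precursors, went from 9.87, 9.82 and 9.92 to 5.20, 4.70 and 4.64, a difference of -5.02 ± 0.097 (adjusted p = 1.04e-27). The licensing and fork genes MCM10 (-4.15), GINS2 (-3.72) and PRIM1 (-3.10) and the nucleotide genes TYMS (-3.62) and TK1 (-3.61) followed. PCNA, the sliding clamp of the replication fork, fell by 1.59 on the log2 scale. GMNN (geminin), which holds back licensing, was the member that rose (0.57). Of the repair genes, RAD51AP1 (-3.24), FANCB (-2.49), BLM (-2.46) and BRCA1 (-2.41) fell and FANCF rose (0.49).

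In mitosis, the kinase and cyclin genes NEK2 (-4.76), CDK1 (-4.18), CCNB2 (-3.81) and BUB1 (-3.71) fell. CDK1 read 11.35, 11.30 and 11.40 with DMSO and 7.06, 7.25 and 7.20 with SGX-523, a difference of -4.18 against an SE of 0.070. The kinetochore genes other than SPC25 included NDC80, CENPA and NUF2 (-3.92), and the spindle genes ASPM (-4.68), ANLN (-4.45) and KIF2C (-4.63). The chromosome genes included BIRC5 (survivin, -4.66, probe set mean -2.88), NCAPG (-4.64) and TOP2A (-4.63), and FOXM1, the factor that drives this programme, was at -3.61 (probe set mean -2.17). The members that moved least were SPC24 (-0.68, probe set mean -2.35) and INCENP (-0.69), which were still called lower. The value for SPC24 rests on its probe set: with a 48 h array left out another was the brighter, and the differences were -4.12 to -3.92.

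Promoters of 5 of these genes are shown because each holds the short element known for its class. The cell cycle homology region (CHR) TTTGAA, bound by the MuvB complex, stood in 28 of 39 windows found for the mitosis list, against 15.4% of all windows and 9.58% of those of genes tested. The CCAAT box, bound by NF-Y, also stood in 28 of the 39 (all windows 35.7%, those of genes tested 37%). The E2F motif TTTCCCGC stood in 9 of 31 windows of the replication list (all windows 1.66%, those of genes tested 2.73%). Each line gives the 150 bases before the start, 5′ to 3′ on the gene's strand, with CHR and CCAAT letters in capitals for the mitosis genes CCNB2 (chr15:59104996-59105145, plus strand), CENPA (chr2:26785906-26786055, plus) and MKI67 (chr10:128126424-128126573, minus), matches on the other strand (ATTGG for CCAAT) included, and E2F letters of either strand in capitals for GINS2 (chr16:85688955-85689104, minus) and PCNA (chr20:5126623-5126772, minus).
CCNB2: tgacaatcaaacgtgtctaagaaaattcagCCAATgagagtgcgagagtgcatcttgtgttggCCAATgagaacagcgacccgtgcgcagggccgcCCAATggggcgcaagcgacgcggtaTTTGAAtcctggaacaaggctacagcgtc
CENPA: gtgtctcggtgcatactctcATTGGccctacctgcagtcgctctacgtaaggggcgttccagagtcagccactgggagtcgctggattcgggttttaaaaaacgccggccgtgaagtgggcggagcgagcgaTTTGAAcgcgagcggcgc
MKI67: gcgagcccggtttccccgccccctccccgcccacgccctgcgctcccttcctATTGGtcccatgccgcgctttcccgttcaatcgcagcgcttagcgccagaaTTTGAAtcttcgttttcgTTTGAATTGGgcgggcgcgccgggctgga
GINS2: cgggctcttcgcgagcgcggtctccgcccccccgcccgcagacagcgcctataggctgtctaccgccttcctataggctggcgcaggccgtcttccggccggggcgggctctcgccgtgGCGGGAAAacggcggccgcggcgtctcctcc
PCNA: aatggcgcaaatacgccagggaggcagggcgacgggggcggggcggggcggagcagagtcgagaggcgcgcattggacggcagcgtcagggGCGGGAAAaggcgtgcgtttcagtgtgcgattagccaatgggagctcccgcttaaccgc
In CCNB2 3 CCAAT boxes precede a CHR, and in MKI67 the CHR nearer the start overlaps a CCAAT box by a base. The differences of these 5 genes ran from -4.93 for MKI67 to -1.59 for PCNA.

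**Figure D2:**
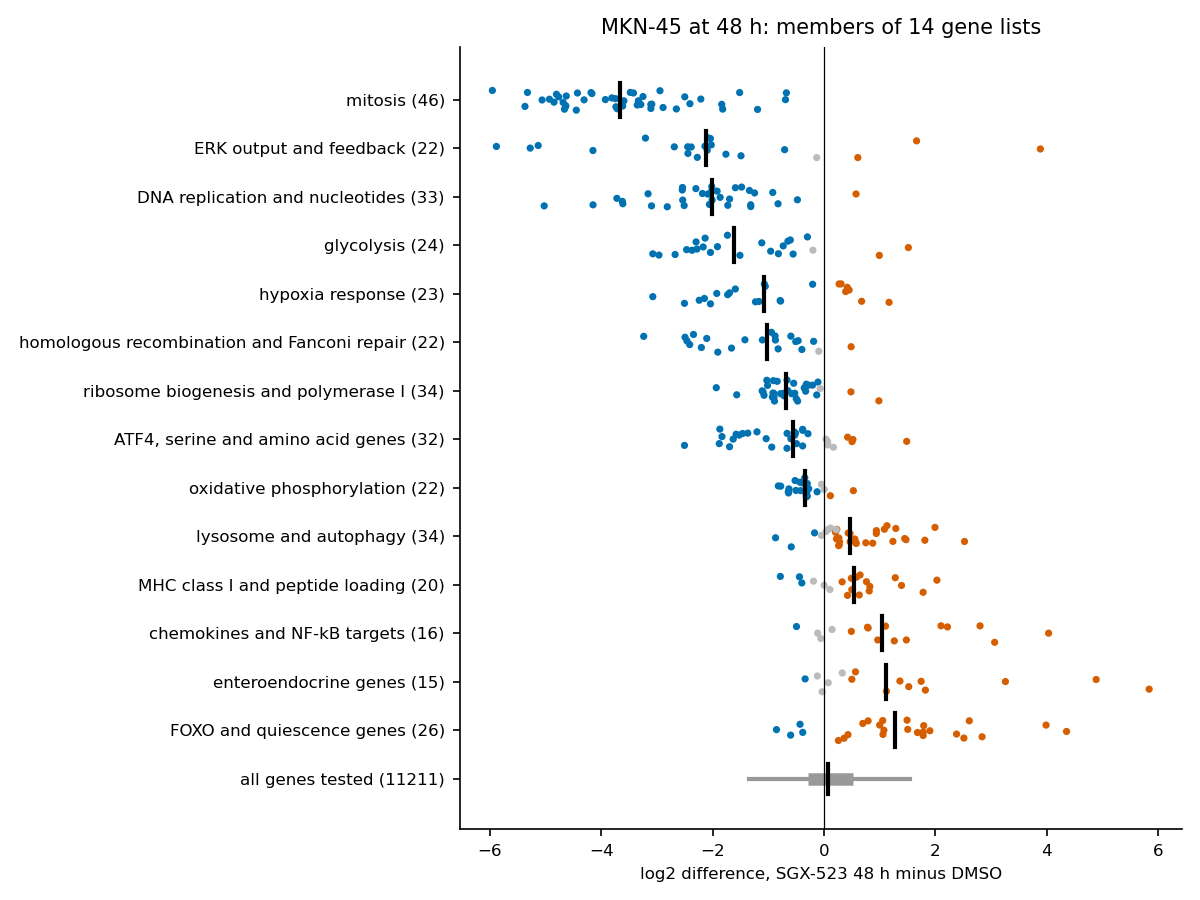
Log2 difference, SGX-523 48 h minus DMSO (horizontal axis), of each tested member of 14 gene lists in MKN-45, with the number tested in brackets. Orange points were called higher, blue points lower and grey points neither, black bars are medians, and the grey bar spans the 5th to 95th percentile of all genes tested (thick part, 25th to 75th). Mitosis lies wholly below 0, with a median of -3.66, and the FOXO list mostly above it, with a median of 1.28.

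Most genes of glucose breakdown fell. Of 24 glycolysis genes tested from 28, 21 fell and 2 rose (median -1.62), against 31.7% and 43.8% of all genes, and 14 fell at least 2-fold. SLC2A1, the glucose importer GLUT1, read 11.47, 11.51 and 11.42 with DMSO and 8.37, 8.49 and 8.31 with SGX-523, a difference of -3.07 ± 0.069 (adjusted p = 4.93e-26). HK2, which traps glucose in the cell, went from 9.82, 9.86 and 9.91 to 6.79, 6.92 and 6.99, a difference of -2.96 ± 0.059 (probe set mean -1.77). From there the falls ran down the pathway through GPI (-2.30), PFKP (-2.28), ALDOA (-2.37), PGK1 (-2.13), ENO1 (-2.47), PKM (-2.67) and LDHA (-1.91). The 2 that rose were PDK2 (1.51, probe set mean 0.85) and PDK4 (0.99), kinases that hold pyruvate back from the mitochondrion, while PDK1 fell (-2.04). Of 23 hypoxia response genes tested from 26, 16 fell and 7 rose (median -1.07), and SLC2A1 and PDK1 stand in both lists. Outside the glycolysis list, EGLN3 (-2.24), BNIP3 (-2.15), ANKRD37 (-1.93) and the HIF subunit gene EPAS1 (-1.70) fell, and VEGFA rose (1.17, probe set mean 0.69).

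Other metabolic groups fell less. Of 22 oxidative phosphorylation genes tested from 26, 18 fell and 2 rose (median -0.33), against 31.7% and 43.8% of all genes, and none fell 2-fold. CYC1 was at -0.82 and UQCRC1 at -0.78. Of 32 ATF4, serine and amino acid genes tested from 37, 24 fell and 4 rose (median -0.57). DDIT4, an mTOR inhibitor induced by stress (-2.50), the folate enzyme gene MTHFD2 (-1.88), the arginine transporter gene SLC7A1 (-1.87), the cystine transporter gene SLC7A11 (-1.83) and the serine enzyme gene PHGDH (-1.46) fell. SESN2, which senses leucine, rose by 1.48. Of 25 cholesterol and fatty acid genes tested from 31, 14 fell and 5 rose (median -0.39). SCD, which desaturates fatty acids, fell by 1.80 on the log2 scale, and the cholesterol exporter genes ABCA1 and ABCG1 rose. ABCA1 went from 5.55, 5.51 and 5.80 to 8.71, 8.72 and 8.96, a difference of 3.17 ± 0.075, and ABCG1 rose by 1.79 (0.57 by the probe set brightest over 24 arrays). The lower members of a set of 10 common reference genes included HPRT1 (-2.15), PGK1 and ACTB (-1.69), and 8 of the 10 fell and 1 rose, beside the higher ACTB 3 prime minus 5 prime difference given above.

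FOXO target and quiescence genes rose. Of 26 tested from 29, 22 rose and 4 fell, with a median of 1.28 and 16 at least 2-fold higher, against 43.8% of all genes called higher. PIK3IP1, which inhibits PI3K, read 5.45, 4.77 and 5.27 with DMSO and 9.52, 9.60 and 9.43 with SGX-523, a difference of 4.35 ± 0.12 (adjusted p = 6.88e-24, probe set mean 1.56). TP53INP1, a stress and autophagy gene, went from 7.10, 6.79 and 6.92 to 10.90, 10.87 and 10.999, a difference of 3.98 ± 0.079. The selenium carrier gene SELENOP (2.84), the arrestin family gene ARRDC4 (2.61), the repressor gene BCL6 (2.51), TXNIP (1.90), which limits glucose uptake, and FOXO3 itself (1.50) rose. The 4 that fell were GADD45B (-0.85, probe set mean -0.56), TRIM63 (-0.60), the insulin receptor substrate gene IRS2 (-0.43) and FOXO1 (-0.38). The forkhead motif GTAAACA stood in 4 of the 21 windows found for the list, against 3.41% of all windows and 2.26% of those of genes tested.

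Cell death regulators moved both ways. Of 27 tested from 35, 13 rose and 10 fell, near the 43.8% and 31.7% of all genes. When arrays were centred on external controls the counts were 6 and 15, beside 36.1% higher among all called genes. The BH3-only gene BMF went from 4.85, 4.70 and 4.85 to 8.34, 8.35 and 8.06, a difference of 3.45 ± 0.13 (adjusted p = 2.83e-20, probe set mean 1.45). BCL2L11 (BIM), which kinase inhibitors are known to raise, read 6.50, 6.64 and 6.86 with DMSO and 8.37, 8.46 and 8.29 with SGX-523, a difference of 1.71 ± 0.11 (probe set mean 1.04). BBC3 (PUMA) rose by 1.35 and BNIP5 by 3.62, while BNIP3 and PMAIP1 (NOXA, -0.36, probe set mean -0.21) fell, PMAIP1 not being called in the fit to all 27 arrays. The death ligand gene TNFSF10 (TRAIL) went from 4.51, 4.33 and 4.32 to 7.64, 7.82 and 7.65, a difference of 3.32 ± 0.082, and its receptor gene TNFRSF10A fell by 1.42 on the log2 scale. Of 22 p53 targets tested from 27, 12 rose and 5 fell (median 0.53), against 43.8% and 31.7% of all genes. The p53 targets that rose included TP53I3 (1.86), SESN1 (1.78), ZMAT3 (1.29) and CDKN1A, while FAS (-0.70) and GDF15 (-0.70) fell. SESN1 and TP53INP1 stand in the FOXO list as well.

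Lysosome and autophagy genes rose modestly. Of 34 tested from 38, 26 rose and 3 fell (median 0.47), against 43.8% and 31.7% of all genes. When centred on external controls 18 rose and 4 fell, beside 36.1% higher among all called genes. WIPI1, an early autophagosome protein, read 5.10, 5.30 and 4.57 with DMSO and 7.47, 7.49 and 7.57 with SGX-523, a difference of 2.52 ± 0.12. The hydrolase genes ASAH1 (1.99), CTSS (1.81), HEXA (1.24) and CTSA (1.08), the sterol carrier NPC2 (1.29) and the autophagy genes SQSTM1 (1.47) and GABARAPL1 (1.45, probe set mean 0.81) rose, and NPC1 (-0.87) and GLA (-0.59) were the larger falls. The CLEAR core TCACGTGA, which TFEB and TFE3 bind and which contains an E-box, stood in 5 of 24 windows found for the list. It stood in 1.04% of all windows and 1.98% of those of genes tested. The promoter of CTSA, the protective protein of the lysosome, is shown as an example (chr20:45891185-45891334, plus strand, 5′ to 3′, the 150 bases before the start), with the CLEAR core and a separate E-box in capitals.
CTSA: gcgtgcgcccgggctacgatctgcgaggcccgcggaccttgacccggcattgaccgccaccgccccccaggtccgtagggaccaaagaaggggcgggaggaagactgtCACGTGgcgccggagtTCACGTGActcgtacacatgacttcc
CTSA rose by 1.08 ± 0.042 on the log2 scale.

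Antigen presentation and chemokine genes were higher. Of 20 MHC class I and peptide loading genes tested from 21, 14 rose and 3 fell (median 0.54), against 43.8% and 31.7% of all genes. HLA-E, a non-classical heavy chain that natural killer cells read, went from 9.02, 9.05 and 9.01 to 11.12, 11.08 and 10.97, a difference of 2.03 ± 0.048. PSMB9 (1.78), ERAP1 (1.39) and HLA-F (1.28) rose and PSME2 fell (-0.78). HLA genes share sequence, so their probe sets may read more than 1 of them. Of 16 chemokine and NF-kB target genes tested from 30, 12 rose and 1 fell (median 1.03). CXCL10, a T cell attractant, read 3.52, 3.38 and 3.51 with DMSO and 7.36, 7.27 and 7.86 with SGX-523, a difference of 4.03 ± 0.15 (adjusted p = 1.57e-20). TNFAIP2 (3.06), CCL20 (2.80), NFKBIZ (2.22) and the feedback inhibitor TNFAIP3 (2.10) rose, and CXCL8 fell (-0.49). Interferon-stimulated genes were divided, with 11 higher and 8 lower of 21 tested from 34, against 43.8% and 31.7% of all genes. Their counts turned to 8 and 9 when centred on external controls, beside 36.1% higher among all called genes. GBP2 (2.87), IRF1 (1.45) and IFIT2 (1.38) rose and IFITM1 (-1.50), IFITM3 (-1.38) and OAS1 (-1.28) fell. Leukocyte markers, as given above, had low sums that overlapped between the groups.

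Drug and retinoid metabolism genes held 3 of the 15 largest rises but moved both ways. Of 43 tested from 70, 20 were higher and 19 lower, against 43.8% and 31.7% of all genes. Of the 43, 5 had no DMSO array at the array median. Without the filter 26 of 62 were higher (41.9%) and 22 lower (35.5%), against 29.7% and 21.5% of all genes. Of 11 glutathione transferase genes 5 rose and 6 fell (median -0.18), GSTA1, GSTA2 and GSTA4 (2.998) among the former and MGST1 (-1.15) among the latter. Only 3 of 9 glucuronosyltransferase genes were tested, and these rose, UGT2B15 and UGT2A3 (3.54) among them. UGT2B4, UGT2B7 and UGT2B10 were on the array and did not pass the filter on low signal. GSTA2 read 4.17, 3.58 and 3.85 with DMSO and 8.98, 9.26 and 9.13 with SGX-523, and since it is a close copy of GSTA1 the probe sets may share signal. CYP1A1, which aryl hydrocarbon receptor ligands induce, rose by 2.99 (probe set mean 1.90), while the receptor gene AHR fell by 1.96 on the log2 scale. CYP2S1 fell (-3.31, probe set mean -2.11). The retinal dehydrogenase genes diverged, ALDH1A1 going from 8.03, 8.01 and 8.08 to 11.15, 11.12 and 11.11 (3.09) and ALDH1A2 from 6.16, 5.54 and 5.83 to 3.58, 3.50 and 3.54 (-2.31).

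Lineage genes of stomach and gut changed in both directions. Of 36 tested from 60, 14 were higher and 17 lower, against 43.8% and 31.7% of all genes. The factors CDX2, SOX2 and FOXA1 rose. CDX2, the intestinal homeobox factor, went from 6.01, 6.27 and 6.30 to 8.62, 8.77 and 8.58, a difference of 2.46 ± 0.096. SOX2, a factor of the stomach and foregut, went from 8.15, 7.84 and 8.01 to 10.89, 10.99 and 11.29, a difference of 3.06 ± 0.14. FOXA1 rose by 2.57, PDX1 by 1.40 and FOXA3 by 1.31, and SOX9, a progenitor factor, fell (-1.71). Several secreted or surface products fell. TFF1, the trefoil peptide of gastric surface mucus, read 10.56, 10.37 and 10.31 with DMSO and 6.53, 6.80 and 6.61 with SGX-523, a difference of -3.76 ± 0.12 (adjusted p = 3.16e-22). CEACAM6 (-3.61), REG4 (-3.14), the gastric protease gene CTSE (-2.69), VSIG1 (-2.50), the goblet cell gene SPINK4 (-2.35) and MUC13 (-1.81) fell. Besides SPINK1, LIPF, the gastric lipase of chief cells, rose, from 4.09, 4.16 and 3.86 to 7.02, 7.20 and 6.93 (3.01).

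The endocrine factor genes NEUROG3, RFX6 and NKX2-2 rose, and few of the products of mature endocrine cells were measurable. Of 43 enteroendocrine genes only 15 passed the filter, 6 of them with no DMSO array at the array median, and 22, among them the hormone genes GAST, GHRL, SST and GCG and the granule gene CHGA, were on the array and did not pass it, and 6 were not matched to a probe set. Over all 37 on the array, with no filter, 13 were called higher (35.1%) and 2 lower (5.41%), against 29.7% and 21.5% of all genes, with a median of 0.09. NEUROG3, which starts endocrine fate in gut and pancreas, read 2.83, 2.998 and 2.66 with DMSO and 6.21, 6.25 and 5.80 with SGX-523. It was under the array median without the inhibitor and above it after 48 h with it, a difference of 3.26 ± 0.16. NEUROG3 passed the filter on low signal only through the 48 h arrays, so no p is given for it. RFX6, which acts downstream of NEUROG3, went from 2.75, 2.83 and 2.76 to 7.58, 7.43 and 7.99, a difference of 4.88 ± 0.15. NKX2-2 went from 3.46, 3.63 and 3.74 to 5.32, 5.58 and 5.39, a difference of 1.82 ± 0.16. SOX4 (1.74, probe set mean 2.90), ISL1 (0.56), the serotonin pathway enzyme gene DDC (1.52, probe set mean 0.79) and the granule genes CHGB (1.36) and SYT7 (1.12) rose as well. SYP and SNAP25, which mark mature secretory cells, were at 0.08 (adjusted p = 0.441) and -0.03 (adjusted p = 0.791) and were not called, although SNAP25 was called lower when arrays were centred on external controls (-0.30).

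Keratins moved in opposite directions. Of 31 keratin and junction genes tested from 45, 17 rose and 12 fell (median 0.17), against 43.8% and 31.7% of all genes. Their counts turned to 11 and 15 when centred on external controls, beside 36.1% higher among all called genes. KRT8 and KRT18, the keratin pair of simple epithelia, fell together. KRT18 read 13.16, 13.25 and 13.22 with DMSO and 11.21, 11.16 and 11.11 with SGX-523, a difference of -2.05 ± 0.032, and KRT8 was at -1.97. KRT15, a keratin of basal and progenitor cells, went from 5.93, 5.94 and 5.49 to 9.91, 9.77 and 9.77, a difference of 4.03 ± 0.071 (adjusted p = 1.16e-28). Among tight junction genes CLDN2 (-3.20) and CLDN1 (-1.47) fell and MARVELD2 (1.13), CGN (1.09), CLDN3 (0.94) and CLDN4 (0.82) rose, and the E-cadherin gene CDH1 was at 0.56 (probe set mean 0.35). Of 32 invasion, integrin and matrix genes tested from 49, 15 fell and 11 rose (median -0.11), against 31.7% and 43.8% of all genes. The hyaluronan genes CEMIP, HAS3 (-3.82) and HAS2 (-3.06) fell, as did the integrin genes ITGB4 (-3.07) and ITGA2 (-1.97), and MATN2, TIMP2 (2.08) and COL12A1 (2.03) rose.

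The 24 h arrays were then set beside these changes. No DMSO group is matched to each time, so time with the inhibitor and time in culture cannot be told apart. The 24 h and 48 h groups were compared with the same 3 DMSO arrays, so their differences from DMSO are given side by side and not set against each other. At 24 h 8236 genes were called against DMSO (73.5%), 4618 higher (41.2%) and 3618 lower (32.3%), so that 56.1% of the called genes were higher, or 30.9% when arrays were centred on external controls. The direct comparison of 48 h with 24 h called 4788 genes (42.7%), 2989 higher (26.7%) and 1799 lower (16%), with at least 2-fold changes in 103 higher (0.919%) and 43 lower (0.384%). Without replicate 1 of the 48 h group the 2-fold rises were 67 and without replicate 3 they were 65.

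Endocrine and signalling genes were among those that rose late. RGS4 read 3.08, 2.99 and 3.21 with DMSO, 3.45, 3.89 and 3.88 at 24 h and 8.83, 8.76 and 8.79 at 48 h. Nearly all of its rise came from 24 h to 48 h, 5.05 ± 0.15. RGS4 passed the filter on low signal only through the 48 h arrays, so no p is given for it. Of all genes tested 61 passed in this way, 3 of the 15 enteroendocrine genes tested among them. HEPACAM2 went from 3.91 ± 0.35 (SD, n = 3) at 24 h to 8.26 ± 0.30 at 48 h, a difference of 4.35. RFX6 rose by 3.28, TMEM158 by 3.12, the chaperone gene HSPA2 by 3.10, OLFML2B by 2.70, the semaphorin gene SEMA6A by 2.70 and the opioid receptor gene OPRK1 by 2.49 in the same interval. Over the 37 enteroendocrine genes on the array, with no filter, 10 rose and 2 fell from 24 h to 48 h, against 16.5% and 10.1% of all genes. NEUROG3 was at 1.15 against DMSO at 24 h and 3.26 at 48 h. The BMP inhibitor gene BAMBI (-0.02 and 2.05) and LIPF (0.50 and 3.01) had the same late course, while INSM1 was already at 4.51 at 24 h.

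Mitosis genes went on falling. Of the 46 tested 35 fell and 0 rose from 24 h to 48 h, with a median of -0.62, against 16% of all genes called lower. TOP2A, the topoisomerase that untangles chromosomes, read 11.25, 11.32 and 11.38 with DMSO, 8.27, 8.31 and 8.23 at 24 h and 6.69, 6.70 and 6.68 at 48 h, a fall of 1.58 ± 0.069 in the second day (adjusted p = 3.50e-17). CCNB2 (-1.64) and the primase gene PRIM1 (-1.61) fell further in that interval. Replication genes numbered 8 higher and 8 lower of 33 in that interval (median -0.10), against 26.7% and 16% of all genes. Outside the cell cycle the neuropeptide gene GAL (-1.34), the galectin gene LGALS1 (-1.25) and the pentose phosphate gene TKT (-1.18) fell, TKT reading 11.30, 11.45 and 11.39 with DMSO, 11.59, 11.60 and 11.62 at 24 h and 10.46, 10.43 and 10.36 at 48 h. CELA3A, a pancreatic elastase gene, fell back from 8.86 at 24 h to 7.66 at 48 h, above its DMSO mean of 5.17. ERK output went partly the other way, with 11 higher and 3 lower of 22, against 26.7% and 16% of all genes. DUSP6 rose by 0.99 ± 0.073 from 24 h to 48 h while it stayed far below DMSO.

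**Figure D3:**
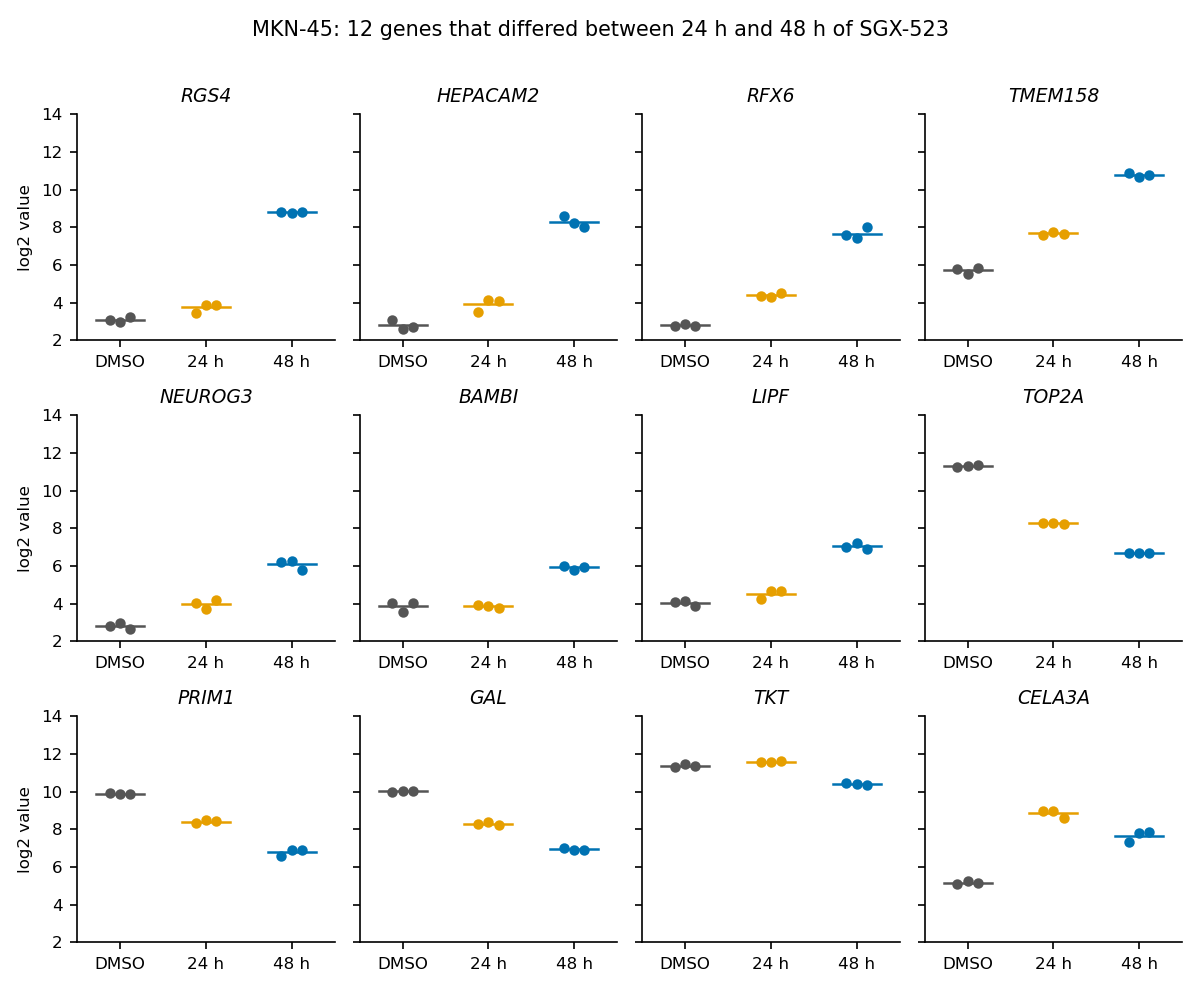
Deposited log2 values (vertical axis) of 12 genes on the 9 MKN-45 arrays, grey DMSO, orange SGX-523 for 24 h and blue SGX-523 for 48 h, with a point per array and a line at the group mean. In RGS4, HEPACAM2, RFX6, TMEM158, NEUROG3, BAMBI and LIPF the blue points lie well above the orange, and in TOP2A, PRIM1, GAL, TKT and CELA3A below them.

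The response was then set against that of EBC-1, the lung line that also depends on MET, by testing the difference between the 2 lines' 48 h responses. It was called in 7124 genes (63.5%), with 977 at least 2-fold more positive in MKN-45 (8.71%) and 644 more negative (5.74%). Of the called differences 60.9% were positive, and 73.1% when arrays were centred on external controls. Over the 37 enteroendocrine genes on the array, with no filter, 12 were more positive in MKN-45 and 4 more negative, against 25.1% and 18.1% of all genes. INSM1 changed by 5.83 in MKN-45 and 0.05 in EBC-1, a difference of 5.78 ± 0.15 (adjusted p = 2.65e-23). RFX6 was at 4.88 and -0.03 and NEUROG3 at 3.26 and 0.17, differences of 4.91 and 3.08. TMEM158 and PHLDB2 had opposite signs in the 2 lines. TMEM158 was at 5.06 in MKN-45 and -3.17 in EBC-1, and PHLDB2, which anchors microtubules at the cell cortex, at 4.41 and -4.005, so that they differed by 8.24 and 8.41. SPINK1 was at 6.77 and 3.68, both positive, a difference of 3.09. SOX2 was at 3.06 and -0.22, a difference of 3.28.

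On the negative side, CEMIP was at -5.19 in MKN-45 and 0.08 in EBC-1, a difference of -5.28 ± 0.20. The scaffold gene IQGAP2 (-2.89 and 2.48, difference -5.37) and the calcium-binding S100P (-1.78 and 2.91, difference -4.69) had opposite signs. So had 2 genes of growth factor signalling, EGFR (-1.34 and 1.21, difference -2.56) and IRS2 (-0.43 and 3.07, difference -3.50). The glycolysis list differed too, with 22 of 24 members more negative than in EBC-1 and 0 more positive, against 24.9% and 38.7% of all genes. HK2 was at -2.96 and 0.48 (difference -3.45, or -2.15 by probe set means) and SLC2A1 at -3.07 and -1.77 (difference -1.30). TFF1 differed by -3.95. The mitosis medians were -3.66 in MKN-45 and -4.01 in EBC-1. The response of 25 of the 46 members was more positive in MKN-45 and of 9 more negative, against 38.7% and 24.9% of all genes. MYC was at -4.21 and -3.37 (difference -0.84), and for SPC25 the difference between the responses was 0.10 ± 0.16 (adjusted p = 0.605), not called, and it was -0.51 and called when low values were raised to the 20th percentile of each array. For ribosome biogenesis the medians were -0.69 and -1.46, with 27 of 34 members more positive in MKN-45 and 3 more negative (all genes 38.7% and 24.9%).

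Against HCC827, the line that does not depend on MET, 7400 differences were called (66%), 1139 at least 2-fold more positive (10.2%) and 822 more negative (7.33%). The 6 HCC827 arrays had medians of 5.72 to 5.73 and ACTB 3 prime minus 5 prime differences of 2.0014 to 2.44, against 5.06 to 5.14 and 3.47 to 4.27 on the 9 MKN-45 arrays. No source used here names a common normalization of both lines, and the part of this in the differences was not tested. The median over mitosis genes was -0.05 in HCC827, and all 46 of those genes had a more negative response in MKN-45, against 27.4% of all genes. Of the called differences 58.5% were positive, and 30.4% when arrays were centred on external controls. SPC25, which passed the filter only through the DMSO arrays of MKN-45, changed by -5.95 in MKN-45 and -0.11 in HCC827 (difference -5.84 ± 0.16). DUSP6 changed by -5.27 and 0.30 (difference -5.58). EGR1 was at -3.66 and 1.75, opposite in sign, a difference of -5.41, which became -0.73 to -0.57 when a DMSO array of MKN-45 was left out and the filter took a dimmer probe set. GSTA1 (6.58 and 0.02, difference 6.56), INSM1 (5.55) and CDX2 (2.54) were more positive in MKN-45. SPINK1 was at 1.25 in HCC827, the same sign as in MKN-45, with a difference of 5.51.

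**Figure D4:**
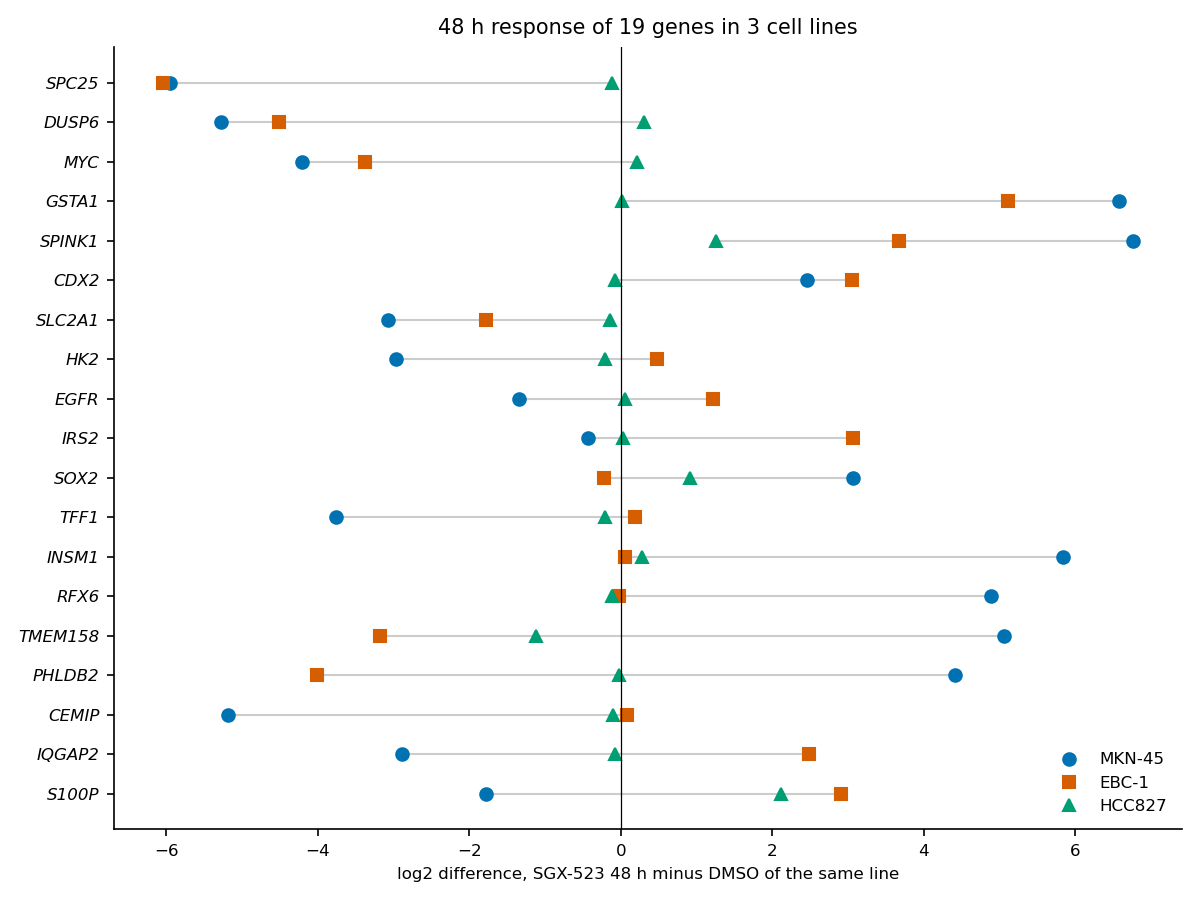
Log2 difference, SGX-523 48 h minus DMSO of the same line (horizontal axis), for 19 genes in MKN-45 (circles), EBC-1 (squares) and HCC827 (triangles). MKN-45 and EBC-1 lie together on the left for SPC25, DUSP6 and MYC and on opposite sides of 0 for EGFR, TMEM158, PHLDB2, IQGAP2 and S100P, while HCC827 lies near 0 for SPC25, DUSP6, MYC, GSTA1 and PHLDB2.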

How the data were processed

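Expression was measured on 27 arrays, of which 24 entered the fit. The authors deposited log2 values per probe set; the submitters' processing notes name MAS5 without a role, with the normalization not given in the sources used here. Probe sets of 1 gene that reached the array median on at least 3 of the 9 MKN-45 arrays were kept, and the brightest stood for its gene. Means of 8 groups were fitted with limma 3.58.1 (R 4.3.3, intensity trend, 16 residual degrees of freedom), and p-values were adjusted by Benjamini-Hochberg over 11211 genes. The 3 HCC827 arrays with SGX-523 for 24 h enter no comparison here and were left out of the fit, since an earlier analysis had found 1 of them to stand apart (r down to 0.966 within the group); they entered as an alternative. The comparisons were 48 h and 24 h against DMSO, 48 h against 24 h, and the difference in 48 h response between MKN-45 and each other line. The script was tested on simulated data.

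The members and gene lists were chosen with earlier results of these data known. Genes were to be named by rule: MET and HGF, the 15 largest called rises and falls, from each list the 6 largest changes, up to 3 against the majority and up to 3 not called, and the 8 largest each way in the other comparisons. Of the 305 genes named with a value, 74 stand outside that rule and were chosen for their role after their values were seen, as were several of those named in the comparisons with 24 h and with other lines. Promoter windows are RefSeq's (GRCh38.p14), read with Python 3.11.15. Alternatives were other scalings, filters, probe set rules, array sets, array weights, a replicate block and leaving out each replicate.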

Additional observations from a re-analysis of the deposited data

Results flagged for a closer look

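Responses at 48 h that differed between MKN-45 and another line, by the test of the difference in limma at an adjusted p under 0.05, are listed here for the genes named above, on the log2 scale. Against EBC-1, the response of MKN-45 was more positive for PHLDB2 (8.41), TMEM158 (8.24), INSM1 (5.78), RFX6 (4.91), SOX2 (3.28), SPINK1 (3.09) and NEUROG3 (3.08). It was more negative for IQGAP2 (-5.37), CEMIP (-5.28), S100P (-4.69), TFF1 (-3.95), IRS2 (-3.50), HK2 (-3.45), EGFR (-2.56), SLC2A1 (-1.30) and MYC (-0.84). Against HCC827, it was more positive for GSTA1 (6.56), INSM1 (5.55), SPINK1 (5.51) and CDX2 (2.54), and more negative for SPC25 (-5.84), DUSP6 (-5.58) and EGR1 (-5.41). The probe sets of SPC25 and EGR1 passed the filter only through the 3 MKN-45 DMSO arrays, and that of NEUROG3 only through the MKN-45 arrays at 48 h. Other listed genes, RFX6, INSM1 and SPINK1 among them, were below the array median on every MKN-45 DMSO array and passed only through treated arrays. MKN-45 differs from both other lines in tissue of origin as well as in its response, and these cannot be told apart. No test for a single outlying array was made in groups of 3. The array weights of limma ran from 0.412, for replicate 3 of MKN-45 with SGX-523 at 48 h, to 1.92, and with these weights 0 of 20 counts of called genes moved by over 1.5 times.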

How the results depend on the processing

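Of 342 gene results, 335 kept their direction and side of the threshold under the alternatives that gave them a value. Leaving out 1 array at a time also ran the filter on low values again, and 37 results, SPC25 and NEUROG3 among them, then had no value in 1 or more fits, because fewer than 3 MKN-45 arrays then reached the array median. With each gene's probe set held as in the full fit, an alternative chosen after seeing the data, all 342 had a value in every such fit, 0 crossed the threshold or turned, and 0 of those called moved by over 1.5 times. Where the filter was run again 4 called results moved by over 1.5 times, EGR1 in both its comparisons (-0.73 to -0.57 for the difference from HCC827), FOSL1 (-0.91 to -0.85 without a DMSO array) and SPC24. The mean of all probe sets moved 29 called results by over 1.5 times, and these means stand beside the values. Centring on external controls moved 17, each with a difference under 1 in size: CDH1, CDKN1B, CXCL8, E2F3, ETS2, EZH2, FANCF, FOXO1, GMNN, IRS2, ISL1, MET, PMAIP1, QARS1, SARS1, UBTF and, at 24 h, LIPF. The probe set brightest over 24 arrays moved 7, among them OLFML2B and OPRK1 from 24 h to 48 h (0.78 and 0.77), and without the filter E2F8 was at -1.62. The exceptions besides EGR1, PMAIP1 and SNAP25, given above, were FOXJ1 by the probe set brightest over 24 arrays (-0.21, no longer called), LIPF and BAMBI at 24 h when centred on external controls (0.20, no longer called, and -0.32, newly called), and the SPC25 difference from EBC-1, which reversed to -0.51 when low values were raised to the 20th percentile. For EGR1 and FOXJ1 the alternative took another probe set. Centring on external controls shifted all genes of an array by the same amount, LIPF, BAMBI and SNAP25 among them. The difference of PMAIP1 stayed at -0.36 in the fit to all 27 arrays. For SPC25 the cause was not tested. Counts moved under several alternatives. With arrays centred on external controls and against DMSO at 48 h, 3007 genes were higher, with 821 at least 2-fold higher and 1298 lower. At 24 h the counts were 2535 higher and 5662 lower, with 599 and 1413 at least 2-fold. From 24 h to 48 h 999 were lower, against EBC-1 1727 were lower, and against HCC827 2185 were higher and 4998 lower, with 648 and 1311 at least 2-fold. With the filter at the 75th percentile the 2-fold rises were 836 at 48 h, 46 from 24 h to 48 h, 630 against EBC-1 and 723 against HCC827. With all 27 arrays 7576 genes were called at 48 h against DMSO, and 1848 were higher and 1166 lower from 24 h to 48 h. Leaving out 1 array at a time gave 65 to 109 2-fold rises from 24 h to 48 h. Signal near the array median limits the fold of genes that are low in a group.

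With the replicate number as a block, 4926 genes were higher and 3560 lower at 48 h, against 4912 and 3555 without it. Deviations of arrays with the same number correlated at -0.14 to 0.17, so the numbers were not taken as pairs.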

Other observations

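Counts for gene groups that the account above does not describe follow, for SGX-523 at 48 h against DMSO in MKN-45. Of all genes tested 43.8% rose and 31.7% fell. When arrays were centred on external controls 36.1% of all called genes were higher, the share beside which counts under that centring stand. The counts of the TGF-beta and BMP, the Wnt, and the epithelial and mesenchymal lists lay near these shares and are no result about those lists. Cilia genes rose by small amounts, with 25 higher and 6 lower of 37 tested (median 0.38), and 15 and 10 when arrays were centred on external controls. The transport genes IFT27 (1.25) and IFT80 (0.94) and the BBSome genes BBS4 (1.18) and BBS9 (1.07) rose, while FOXJ1, the factor of motile cilia, fell (-1.01, probe set mean -0.61), though it was not called by the probe set brightest over 24 arrays (-0.21). Chromatin genes moved both ways. The maintenance genes of DNA methylation UHRF1 (-2.96), HELLS (-1.78) and DNMT1 (-1.35) and the Polycomb genes PHF19 (-3.35) and EZH2 (-0.53) fell. DNMT3A (1.003), TET2 (1.27), TET3 (1.05) and EZH1 (1.03) rose, for 13 higher and 8 lower of 24.

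Of 30 YAP, SRF and actin genes 16 fell and 11 rose (median -0.37). The coagulation factor receptor gene F3 (-3.15), NT5E (-2.84), FHL2 (-2.18) and TEAD4 (-1.97) fell, and TEAD2 (1.64, probe set mean 0.83), TEAD1 (0.99) and CNN3 (2.31) rose. Among TGF-beta and BMP genes 13 rose and 8 fell of 27, which turned to 10 and 12 when centred on external controls; INHBB (2.42), BMP2 (1.96) and BMPR2 (1.74) rose and BMP7 (-1.89) and TGFBR2 (-1.23) fell. Wnt genes numbered 4 higher and 4 lower of 10, with the Wnt inhibitor gene DKK1 (-3.24) and the stem cell receptor gene LGR5 (-0.87) lower and ASCL2 (1.39) and RNF43 (0.94, probe set mean 0.43) higher. Of 16 enterocyte genes 4 rose and 6 fell. DPP4 (2.55, probe set mean 1.69) and ENPEP (1.89), digestive surface peptidases, rose and the carbonic anhydrase genes CA2 (-1.58) and CA12 (-1.17) fell, while of 9 brush border genes 0 rose and 4 fell. Of 12 genes tested from a list on epithelial and mesenchymal state 5 rose and 3 fell, which turned to 3 and 5 when centred on external controls. Of its 5 epithelial genes 3 rose and 0 fell, GRHL2 (1.01) among them, and of its 7 mesenchymal genes 2 rose and 3 fell, with ACTA2 (1.62) higher and TWIST1 (-1.05) lower.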
